A study of Mus musculus with 2 samples.

Results

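Blood endothelial cells low in the capillary genes Gpihbp1 and Car4 were picked out of a single-cell RNA sequencing survey of the mouse dura mater, the outermost membrane around the brain. Members were chosen by measured counts. A barcode was a member if it had at least 200 genes and at most 10% mitochondrial counts, at least 5 unique molecular identifiers (UMIs, 1 per captured transcript) summed over Cdh5, Egfl7, Flt1, Kdr, Emcn and Ptprb, and under 2 over Gpihbp1 and Car4. It also had to hold under 10 UMIs of Col1a1, Col1a2, Col3a1 and Dcn together, which mark fibroblasts, and under 5 of C1qa, C1qb and C1qc, which mark macrophages. In all 89 barcodes met the rule, out of 7559 that passed the first 2 limits and 8499 deposited. The working name for them was Plvap-type endothelium, after the markers Plvap, Igfbp3, Clec14a, Emcn and Cdh5.

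Dura came from female mice in 2 groups, sham surgery (sham) and jugular venous ligature with tissue taken 14 days later (JVL-14), and each group is 1 library. The strain, the age and the number of mice are not given in the sources used here, nor is the time between sham surgery and tissue collection. Both groups were perfused, the dura was peeled off the skullcap and digested, cells of 2 meninges were combined per well, viable singlets were sorted and 20000 cells were loaded. The sort is given as one of viable singlets.

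Endothelial cells line all blood vessels and differ by vessel type. In most of the brain they form the blood-brain barrier, with tight junctions and dedicated transporters, and they do not make PLVAP, the protein that spans the diaphragms of fenestrae, caveolae and transendothelial channels in permeable vessels. The dura lies outside that barrier, and its vessels are largely of the permeable kind. Capillaries of muscle, heart and fat take up fatty acids and carry GPIHBP1, which holds lipoprotein lipase on the vessel wall, and large veins and venules are rich in von Willebrand factor.

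The 250 bases before the start of 4 genes are shown because Cldn5 and Slco1a4 were both higher and Igfbp3 and Rgcc both had lower levels in JVL-14 members. The sequences are from RefSeq, build GRCm38.p6, read 5′ to 3′ on the strand of the gene, while the deposited counts were made on mm39. Capitals mark matches to 4 short motifs on either strand, AGGAAG (ETS type), AACAAT (SOX type), CTTTGA (TCF/LEF type) and GGGCGG (GC box), and matches to different motifs do not overlap here.
Cldn5: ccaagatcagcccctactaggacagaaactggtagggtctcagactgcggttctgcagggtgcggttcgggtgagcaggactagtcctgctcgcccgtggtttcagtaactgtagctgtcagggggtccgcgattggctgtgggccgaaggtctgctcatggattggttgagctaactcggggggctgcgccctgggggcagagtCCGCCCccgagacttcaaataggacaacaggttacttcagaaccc
Slco1a4: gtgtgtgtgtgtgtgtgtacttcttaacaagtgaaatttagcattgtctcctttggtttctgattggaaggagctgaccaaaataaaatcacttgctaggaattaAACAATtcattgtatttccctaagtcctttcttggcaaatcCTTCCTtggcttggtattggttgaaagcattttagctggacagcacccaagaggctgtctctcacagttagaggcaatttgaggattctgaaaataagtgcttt
Igfbp3: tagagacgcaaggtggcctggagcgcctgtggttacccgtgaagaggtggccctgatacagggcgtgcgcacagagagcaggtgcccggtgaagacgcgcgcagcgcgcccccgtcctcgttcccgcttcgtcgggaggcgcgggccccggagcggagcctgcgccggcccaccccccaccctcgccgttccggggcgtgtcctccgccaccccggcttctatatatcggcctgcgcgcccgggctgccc
Rgcc: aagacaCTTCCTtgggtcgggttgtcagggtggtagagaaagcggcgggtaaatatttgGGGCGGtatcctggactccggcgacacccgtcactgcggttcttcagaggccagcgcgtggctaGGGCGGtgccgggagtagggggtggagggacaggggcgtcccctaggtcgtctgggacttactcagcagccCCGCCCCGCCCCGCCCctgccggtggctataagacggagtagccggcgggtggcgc
They lie at chr16:18776597-18776846 on the plus strand for Cldn5, at chr6:141856221-141856470 on the minus strand for Slco1a4, at chr11:7213924-7214173 on the minus strand for Igfbp3 and at chr14:79301636-79301885 on the minus strand for Rgcc. The Slco1a4 window has 39.2% G and C and no CpG, and the Cldn5 window has 59.6% and 12 CpGs. The Igfbp3 window has 73.2% and 32 CpGs, and the Rgcc window 66.8% and 22 CpGs, against medians of 52.4% and 6 over 32841 windows. An ETS type match stood in the Slco1a4 and Rgcc windows, a SOX type match in the Slco1a4 window alone among these, and GC boxes in the Cldn5 window (1) and the Rgcc window (5, of which 3 share their end bases). No TCF/LEF type match was in these windows. Of all windows of this length, 29.5% held the ETS type motif, 9.43% the SOX type, 13.8% the TCF/LEF type and 32.7% the GC box. A match is a description of the letters, not a site of binding.

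The sham library held 62 members and the JVL-14 library 27. That was 1.25% (0.961% to 1.60%) of 4951 and 1.04% (0.683% to 1.5%) of 2608 passing barcodes, a ratio of 0.827 (0.506 to 1.32) for JVL-14 over sham. Brackets give 95% intervals that cover counting error only, Clopper-Pearson for shares, Poisson for levels and conditional binomial for ratios, and they leave out the spread between mice and between cells. With 1 library per group no difference below has a replicate check and no test was possible. Endothelial barcodes with 2 or more UMIs of Gpihbp1 and Car4, called capillary cells here, numbered 99 and 25, so the members were 38.5% (31.0% to 46.5%) of endothelial barcodes in sham and 51.9% (37.6% to 66.0%) in JVL-14. The members held 319519 UMIs in sham and 125809 in JVL-14, with medians of 2684.5 and 2664 per barcode and ranges of 520 to 40963 and 701 to 24987. The 2 libraries shared 2 barcode sequences, neither of them of a member.

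Close to the limits, 16 sham and 4 JVL-14 members had 1 UMI of Gpihbp1 and Car4, and 16 and 6 barcodes with 2 UMIs fell outside. A Plvap UMI was seen in 10 of the 16 and 1 of the 4 just inside, and in 7 of the 16 and 4 of the 6 just outside. At the endothelial limit, 1 sham and 3 JVL-14 members had a score of 5, while 12 and 5 barcodes with a score of 4 fell outside. Those outside had median depths of 1765 UMIs in sham and 13532 in JVL-14, and 4 of the 12 and 0 of the 5 had a Plvap UMI. Values below at an endothelial limit of 3 UMIs include these barcodes, and their part in those values was not tested.

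Of the 89 members, 6 stood apart from the rest. These 4 sham and 2 JVL-14 barcodes had no UMI of Cdh5 (VE-cadherin of endothelial junctions), of the VEGF receptors Flt1 and Kdr or of Ptprb, and none of Plvap. They passed on Egfl7, with 30 UMIs in sham and 14 in JVL-14, and 1 UMI of Emcn. They were deep, at 17668 to 40963 UMIs, and held 37.9% of the member UMIs in sham and 33.9% in JVL-14. Their leading genes against the other members were Plac8, H2ac24, Ccl4, Ramp1 and Stmn1, and all 6 carried Myb, a transcription factor of blood progenitors. Mpo, the peroxidase of granulocyte precursors, was present in 3 of the 4 and 2 of the 2. The B lineage genes Vpreb3 and Cd79a were found in 2 of the sham barcodes. Values below are given for all members and, where they differ, for the 58 sham and 25 JVL-14 members with a UMI of at least 1 of the 4 genes, called core cells, a set chosen after seeing the data.

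**Figure D1:**
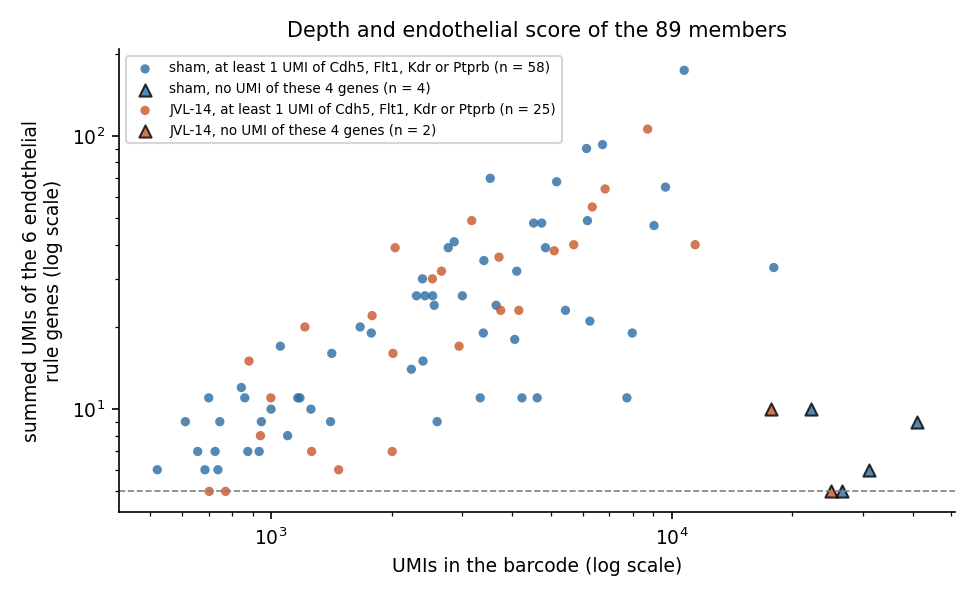
Each point is a member, with its UMIs on the horizontal axis and its summed UMIs of the 6 endothelial rule genes on the vertical axis, both on log scales; colours give the library, triangles the members without a UMI of Cdh5, Flt1, Kdr and Ptprb, and the dashed line the limit of 5. The 6 triangles lie at 17668 UMIs or more with scores of 5 to 10, below the trend of the other 83 members.

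The label fits the members only in part. Plvap UMIs were found in 39 of 62 members of sham and 15 of 27 of JVL-14. In fibroblasts and macrophages they were in 1.47% of 2035 and 2.07% of 964, which should lack Plvap and were deeper (medians of 5615 and 5049 UMIs). Those barcodes were chosen to have no UMI of the 6 rule genes. That choice may lower their Plvap shares, so they are no unselected background. After each barcode was thinned to 1000 UMIs, the shares were 57.1% of 49 and 54.5% of 22 members, with 13 and 5 shallower members left out. Of the members that lacked Plvap UMIs, 19 of the 23 in sham and 10 of the 12 in JVL-14 were core cells. The genes that define core cells are rule genes, so this is no independent check of their type. The level of Plvap was 1089 (978 to 1210) and 1168 (987 to 1373) CPM (UMIs per 1000000 UMIs of the cells summed) in sham and JVL-14 members and 1502 and 2991 CPM in capillary cells. In core cells it was 1754 and 1768 CPM, above the capillary cells of sham and below those of JVL-14. By cells, Plvap UMIs were in 62.9% of sham members and 38.4% of sham capillary cells, and in 55.6% and 80.0% in JVL-14, so the order of the 2 kinds of cell differed between the libraries. The insulin-like growth factor binding protein Igfbp3 was also higher in capillary cells, at 1910 and 2014 CPM against 504 and 207 CPM in members and 811 and 313 CPM in core cells. Vwf, which encodes von Willebrand factor, went the other way, at 272 and 564 CPM in members and 20.6 CPM and 0 UMIs in capillary cells.

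**Figure D2:**
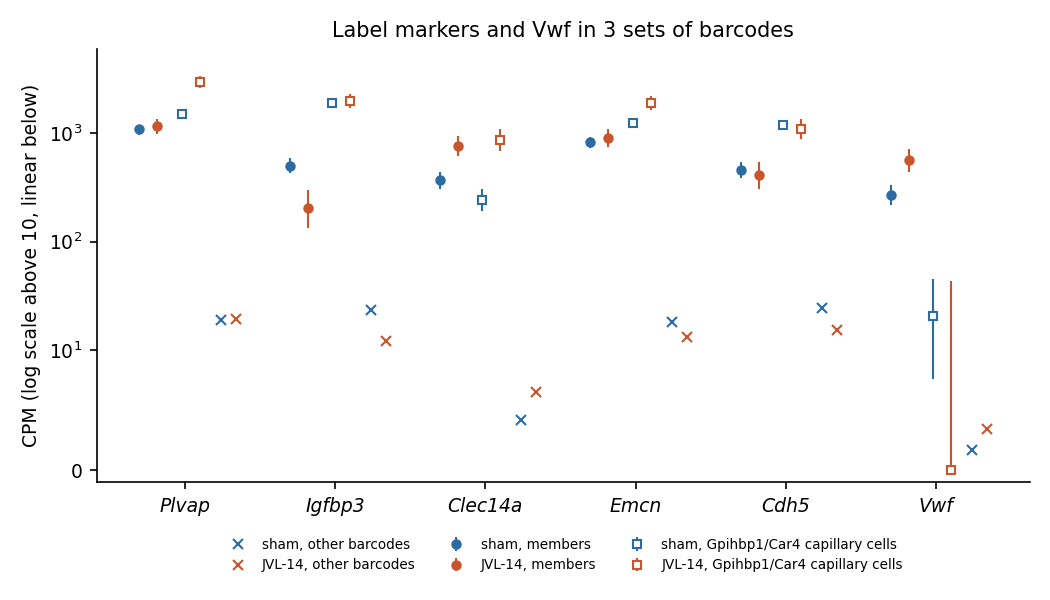
Levels in CPM of the 5 label markers and Vwf in members (filled circles), capillary cells (open squares) and all passing barcodes other than members, capillary cells included (crosses), blue for sham and orange for JVL-14, with Poisson 95% intervals as bars; the axis is logarithmic above 10 CPM and linear below. Igfbp3 was higher in capillary cells than in members of the same library, and Vwf was higher in members. Plvap was higher in capillary cells than in all members, but in sham not than in core cells (1754 against 1502 CPM).

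Outside the rule genes, general endothelial genes were higher in the members than in other barcodes. The largest folds over all other barcodes, over both libraries pooled, were those of Clec14a (483 against 4.97 CPM), an endothelial membrane lectin, the adhesion receptor Adgrl4 (433 against 6.91), Plvap (1112 against 18.9), Cyyr1 (225 against 4.16) and the junction protein Esam (474 against 9.11). Podxl, Cldn5, Ecscr, Kank3 and Pecam1 followed. A gene could be listed with a UMI in 20% of the members of each library, and Cldn5 had one in 17 of 62 and 10 of 27. These folds describe cells chosen for endothelial genes and carry no test.

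Members with other programmes were few but held many UMIs. In sham, 2 members had over 5% haemoglobin UMIs and carried 3932 and 6021 of the 9996 UMIs of Hbb-bs, a haemoglobin chain; JVL-14 members had 26. A sham member held 382 of 390 UMIs of the neutrophil gene S100a8, and another held 256 of 256 UMIs of Ccl21a, the lymphatic endothelial chemokine. Markers of skeletal muscle summed to 372 CPM over the sham members, of which 27 of 62 had any, and to 31.8 CPM over those of JVL-14, with 3 of 27. Over all passing barcodes their sums were 5469 and 99.4 CPM. Summed levels were 2551 and 103 CPM for neutrophil markers, 1117 and 604 CPM for leukocyte markers, 939 and 119 CPM for lymphatic markers and 25.0 and 31.8 CPM for mural cell markers, with 5 of 10 mural genes at 0 in sham and 8 of 10 in JVL-14. The part of these transcripts in the differences below was not tested, except where values without the barcodes are given.

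Some core cells were rich in barrier genes and others in Rgcc or Igfbp3, with 1 cell past both cuts of 5 UMIs. Cells with 5 or more UMIs of the barrier genes Cldn5 (the main claudin of brain endothelial tight junctions), Slc2a1 (the glucose transporter GLUT1) and Slco1a4 (an organic anion transporter) numbered 8 of 58 in sham, 13.8% (6.15% to 25.4%), and 9 of 25 in JVL-14, 36.0% (18% to 57.5%). Cells with 5 or more UMIs of Rgcc, a cell cycle regulator high in capillaries, numbered 16 and 6, and cells with 5 or more of Igfbp3 12 and 2. Of the barrier cells, 1 of 8 and 1 of 9 had an Rgcc UMI, 1 of 8 and 0 of 9 had an Igfbp3 UMI, and 1 sham cell passed both cuts. Over all core cells, 37 of 58 and 10 of 25 had an Rgcc UMI, and 24 of 58 and 8 of 25 an Igfbp3 UMI. Whether the overlap was lower than unrelated markers would give in so few cells was not tested. These are ranges cut on UMIs and not types: 5 sham and 2 JVL-14 cells had 3 to 6 barrier UMIs. The median depths were 4426 and 4157 UMIs for barrier cells and 3128 and 2596.5 for Rgcc cells. Another 29 of 58 sham and 9 of 25 JVL-14 core cells passed none of these cuts. They were shallower, at medians of 1181 and 1263 UMIs, so a fixed cut of 5 UMIs also depends on depth.

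Plvap followed this split in its summed level, but in JVL-14 not at a cut of 5 UMIs. Of the barrier cells, 5 of 8 in sham and 6 of 9 in JVL-14 had no Plvap UMI. Plvap stood at 707 and 961 CPM in the 7 and 9 barrier cells that were below the Rgcc and Igfbp3 cuts, and at 2564 and 2478 CPM in the 21 and 7 cells with 5 or more UMIs of Rgcc or Igfbp3 and fewer of the barrier genes. In JVL-14, 1 of these 7 cells held 31 Plvap UMIs. Of the 25 sham and 8 JVL-14 cells with 5 or more Plvap UMIs, 18 and 3 had no barrier UMI. Some cells held both, with 2 of 8 sham and 3 of 9 JVL-14 barrier cells at 5 or more Plvap UMIs. Over all core cells 25 of 58 and 8 of 25 were past that cut.

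Vein markers were found apart from Rgcc, in part with barrier genes. The 6 sham and 4 JVL-14 cells with 5 or more UMIs of Vwf and Ackr1 (a chemokine receptor of venules) had no UMI of Rgcc or Igfbp3 in any cell, at median depths of 5845 and 5249 UMIs, and 3 of the 6 and 3 of the 4 were barrier cells. Ackr1 had 13 UMIs in 5 sham members and 0 in JVL-14, so the JVL-14 cells passed on Vwf alone. Of these cells, 4 of the 6 and 2 of the 4 had 5 or more Plvap UMIs. In sham 43.7% of the Vwf UMIs lay in the 7 barrier cells below the Rgcc and Igfbp3 cuts and 55.2% in core cells of neither kind, against 67.6% and 32.4% in JVL-14. Each of these 10 cells had Clec14a. The VEGF receptor gene Kdr was at 326 and 504 CPM in barrier cells and 1806 and 2712 CPM in Rgcc or Igfbp3 cells, and the VEGF co-receptor Nrp1 at 218 and 389 against 1640 and 1964 CPM. The chemokine Cxcl12 was at 82 and 275 CPM in barrier cells against 1461 and 1309 CPM, and the basement membrane collagen Col4a1 at 218 and 252 against 1544 and 935 CPM. Esm1, a gene of sprouting tip cells, had 0 UMIs in barrier cells of both libraries and 30 and 7 in Rgcc or Igfbp3 cells. Each of these genes was lower in the barrier cells of both libraries. Kdr is a rule gene, and the other genes were used neither by the rule nor for the cuts.

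**Figure D3:**
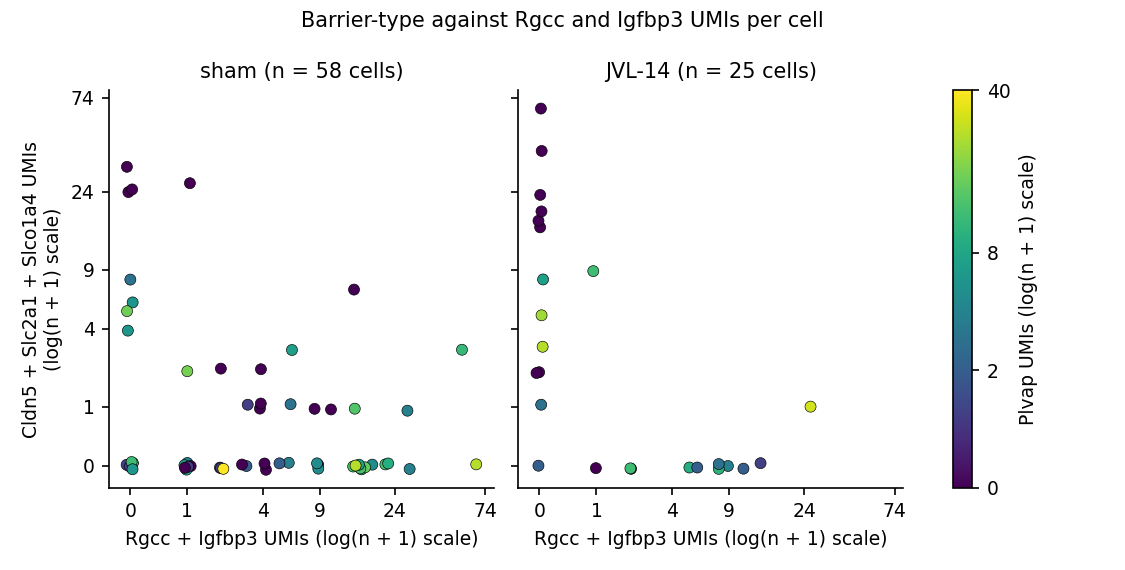
Each point is a core cell of sham (left) or JVL-14 (right), placed by its UMIs of Rgcc and Igfbp3 (horizontal) and of Cldn5, Slc2a1 and Slco1a4 (vertical) and coloured by its Plvap UMIs, all on log(n + 1) scales with small jitter. Apart from 1 sham cell past both cuts of 5 UMIs, cells with many UMIs of one set had few of the other. The barrier cells are 8 of 58 in sham and 9 of 25 in JVL-14.

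Between the libraries, 3534 genes had enough counts to compare in the members, and their median log2 ratio of JVL-14 over sham was 0.09. Past a 2-fold limit, 221 were higher in JVL-14 (6.25%) and 229 lower (6.48%), and in the core cells 169 (6.99%) and 155 (6.41%) of 2419. Against that background the label markers split. Plvap had a ratio of 1.07 (0.879 to 1.30), Emcn, a sialomucin of capillaries and veins, 1.10 (0.873 to 1.37) and Cdh5 0.892 (0.638 to 1.23), and each interval held 1. Clec14a was higher, with 118 UMIs in 27 sham members (369 CPM) and 97 UMIs in 18 JVL-14 members (771 CPM), a ratio of 2.09 (1.58 to 2.75), and of 1.96 (1.48 to 2.59) in core cells, just under 2-fold. With the endothelial limit at 3 UMIs the Clec14a log2 ratio was 0.11 in place of 1.06, and that of Plvap was -0.84 in place of 0.10. That limit adds the deep JVL-14 barcodes with a score of 4 described above. Igfbp3 was lower, with 161 UMIs in 24 members and 26 UMIs in 8, a ratio of 0.410 (0.260 to 0.623). In capillary cells Clec14a stood at 243 and 871 CPM, higher in JVL-14 too, and Igfbp3 at 1910 and 2014 CPM. Whether the Igfbp3 ratio differed between members and capillary cells was not tested.

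Genes of the blood-brain barrier type were higher in JVL-14 members. Of 16 listed, 9 were measured, 7 were past 2-fold higher and 0 lower, and the median log2 ratio was 1.33, and in core cells 7 of 9 with a median of 1.25. Cldn5 had 86 UMIs in 17 sham members (269 CPM, 215 to 332) and 120 UMIs in 10 JVL-14 members (954 CPM, 791 to 1141), a ratio of 3.54 (2.66 to 4.73). Slco1a4 had 27 UMIs in 6 members and 41 in 9, a ratio of 3.86 (2.32 to 6.52), and Slc2a1 45 in 11 and 44 in 8, a ratio of 2.48 (1.60 to 3.85). The drug efflux pump Abcg2 stood at 254 and 636 CPM (ratio 2.51, 1.82 to 3.46), with a UMI in 33 and 17 members. The proteoglycan gene Spock2 had a ratio of 3.71 (1.74 to 8.18), Lef1, a transcription factor of the Wnt pathway that maintains the barrier, 2.96 (1.5 to 5.90), and the amino acid transporter Slc7a5 2.16 (1.06 to 4.34), or 2.23 (0.996 to 4.95) in core cells. The efflux pump Abcb1a, at 1.90 (1.15 to 3.14), and Itm2a, at 1.46 (1.08 to 1.96), were higher by less.

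The UMIs of Cldn5 lay in few cells. In JVL-14, 80.0% of the Cldn5 UMIs were in 5 members, and in sham 70.9%. The barrier cells below the Rgcc and Igfbp3 cuts held 18.5% of all core UMIs in sham and 52.5% in JVL-14. Lef1, which was not used for the cut, stood at 489 and 435 CPM in them, with 18 of 18 core UMIs of sham and 19 of 21 of JVL-14 there. The share of members with a Cldn5 UMI was 27.4% (16.9% to 40.2%) and 37.0% (19.4% to 57.6%), and 22.4% and 27.3% after thinning. With 1 library per group a difference in this share could not be tested. In capillary cells Cldn5 stood at 463 and 400 CPM. With the endothelial limit at 3 UMIs, which gives 85 sham and 39 JVL-14 barcodes, the Cldn5 log2 ratio was 0.86 in place of 1.82 and the list median 0.23. The Lef1 log2 ratio was then near 0, at -0.000653. After thinning to 1000 UMIs the log2 ratio was 0.83 for Cldn5 and -0.43 for Spock2.

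Genes of muscle and heart type capillaries were lower in JVL-14 members. Of 10 listed, 7 were measured, 5 were past 2-fold lower and 0 higher, and the median log2 ratio was -2.02. It was -1.70 with the gene at 0 set to a floor of 3 UMIs. In core cells 5 of 7 were lower, with a median of -2.11. Fabp4, a fatty acid binding protein, had 334 UMIs in 23 sham members (1045 CPM) and 32 UMIs in 4 JVL-14 members (254 CPM), a ratio of 0.243 (0.164 to 0.350). In sham 91 of the Fabp4 UMIs were in 1 cell and in JVL-14 24 of 32. The transcription factor Tcf15 had 61 UMIs in 20 members and 4 in 4 (ratio 0.167, 0.0440 to 0.449), and the water channel Aqp1 103 in 22 and 12 in 5 (ratio 0.296, 0.148 to 0.539). Lipoprotein lipase, Lpl, had 23 UMIs in 11 members and 1 in 1 (ratio 0.110, 0.00268 to 0.680). The fatty acid transporter Cd36 had 22 UMIs in 7 sham members and 0 in JVL-14, or 2.89-fold lower with the 0 set to a floor of 3 UMIs. Rgcc stood at 964 and 541 CPM (ratio 0.561, 0.425 to 0.731).

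The same genes were also lower in capillary cells of JVL-14, at 8769 and 3238 CPM for Fabp4, 785 and 330 CPM for Tcf15, 1992 and 1260 CPM for Aqp1 and 1070 and 106 CPM for Cd36. Among members with 0 UMIs of Gpihbp1 and Car4 the list median was -1.81, and the Fabp4 log2 ratio was -3.74 against -2.02 in all members. That set leaves out the JVL-14 cell with 24 of the 32 Fabp4 UMIs, which had 1 UMI of Gpihbp1. It also leaves out sham cells with Fabp4, 1 of them with 37 UMIs. Cells with 5 or more UMIs of Fabp4, Tcf15, Cd36 and Aqp1 were 22 of 58 core cells in sham and 2 of 25 in JVL-14. Within the cells with 5 or more Rgcc or Igfbp3 UMIs and few barrier UMIs, the Fabp4 level was 1696 CPM over 21 cells of sham and 281 CPM over 7 of JVL-14. Skeletal muscle markers were lower too, at 372 and 31.8 CPM in members. Acta1, the actin of skeletal muscle, had 39 UMIs in 16 sham members, 21 of them in 1 cell, and 0 in JVL-14. An Acta1 UMI was in 25.8% of sham members and in 19.9% of the deeper sham fibroblasts and macrophages. In JVL-14 it was in 0.62% of the latter, so free RNA may hold a part of these UMIs, which was not tested. Vessels of attached muscle and of dura cannot be told apart by these genes, and their part was not tested.

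Some venous genes were higher in JVL-14 members and some arterial genes lower. Of 14 venous markers, 11 were measured, 5 were past 2-fold higher and 0 lower, and the median log2 ratio was 0.56. In core cells 4 of 10 were higher, with a median of 0.72. Vwf had 87 UMIs in 11 sham members and 71 in 9 JVL-14 members, a ratio of 2.07 (1.49 to 2.87), and of 1.95 (1.40 to 2.70) in core cells, under 2-fold. Ackr1, with 13 UMIs in sham and 0 in JVL-14, had too few to count as measured. The leukocyte adhesion molecule Vcam1 had 22 UMIs in 8 and 40 in 4, a ratio of 4.62 (2.68 to 8.16), with 20 of the 40 in 1 cell and 16 in another. The apelin receptor Aplnr had a ratio of 3.93 (1.73 to 9.27), the amino acid transporter Slc38a5 of 3.08 (1.43 to 6.76) and the interleukin 1 receptor Il1r1 of 2.54 (1.16 to 5.58), with a log2 ratio of -0.72 after thinning. With the endothelial limit at 3 UMIs the venous median was -0.22, and 0.72 in core cells. Nr2f2, the transcription factor that sets venous identity, had a ratio of 1.14 (0.543 to 2.26). In the barrier cells below the Rgcc and Igfbp3 cuts Vwf was at 1033 and 1099 CPM, and all 17 JVL-14 and all 11 core sham UMIs of Slc38a5 lay there.

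Of 14 arterial markers, 7 were measured, 3 were past 2-fold lower and 0 higher, and the median log2 ratio was -0.98. The ephrin Efnb2 had 37 UMIs in 18 sham members and 6 in 4 JVL-14 members (ratio 0.412, 0.142 to 0.984), but a log2 ratio of 0.0338 as a mean over cells. Stmn2 had 25 and 4 UMIs (ratio 0.406, 0.103 to 1.18) and the elastic fibre gene Fbln5 21 and 3 (ratio 0.363, 0.0693 to 1.22), and both intervals held 1. Cells with 5 or more UMIs of Gkn3, Stmn2 and Sema3g were 3 in sham and 1 in JVL-14. The arterial median was 0.14 where all genes with a UMI in each library were counted and -0.19 as a mean over cells.

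**Figure D4:**
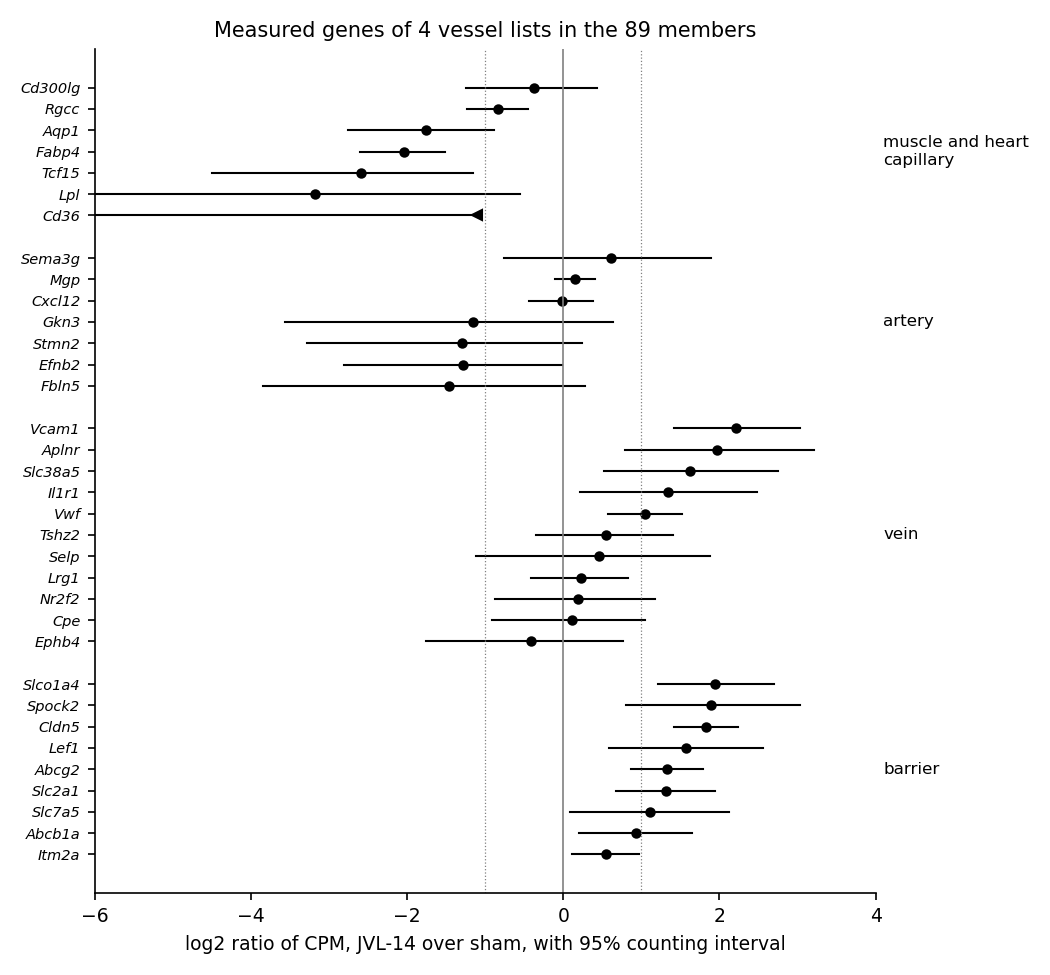
Log2 ratio of CPM, JVL-14 over sham, for each measured gene of 4 vessel lists in the 89 members, with 95% conditional binomial intervals as bars; dotted lines mark 2-fold, intervals are drawn to -6, and the arrowhead for Cd36 marks the upper end of its interval since it had 0 UMIs in JVL-14. Unlike the points, the calls in the text had 0.5 UMIs added to each count. The 9 barrier genes lie above 0 and the 7 muscle and heart capillary genes below.

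Among genes ranked by fold alone, Fn1 and Tmem252 lay largely in barrier cells. Fn1, fibronectin, had 15 UMIs in 7 sham members and 43 in 9 JVL-14 members, a ratio of 7.28 (3.97 to 14.1), with 21 of the 43 in 1 cell. That cell was in the top 5% of Scrublet doublet scores and also held 16 of the 40 Vcam1 UMIs. In JVL-14 86.0% of the core Fn1 UMIs lay in the barrier cells, which held 52.5% of all core UMIs, and in sham 73.3%, where they held 18.5%. Ccn2, a matricellular growth factor, had 22 UMIs in 10 members and 39 in 7 (ratio 4.50, 2.60 to 7.97), with 66.7% of the JVL-14 UMIs in barrier cells but 4.55% of those of sham. Tmem252 had 28 UMIs in 7 members and 47 in 6 (ratio 4.26, 2.62 to 7.07), with 85.1% and 64.3% there in JVL-14 and sham and 28.6% of the sham UMIs in the 1 cell past both cuts. Apold1, an endothelial stress response gene, stood at 125 and 421 CPM (ratio 3.37, 2.19 to 5.21). Spread over more members were Clec2d, with a UMI in 26 and 17 (ratio 3.14, 2.0 to 4.95), B3gnt2 in 14 and 15 (3.24, 1.94 to 5.46), Itih5 in 12 and 12 (3.22, 1.94 to 5.38) and the matrix protein gene Vwa1 in 19 and 12 (3.17, 2.0 to 5.07). In core cells B3gnt2 had 14 and 29 UMIs, a ratio of 4.94 (2.53 to 10.1). Slco1a4 and Cldn5 complete the 10 highest.

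The 10 lowest were Rsad2, Tcf15, Mkrn1, Stox2, Mrpl11, S100a6, Fabp4, Ube2m, Ptpn1 and Aqp1. Rsad2, an interferon-induced antiviral gene, had 93 UMIs in 16 sham members, 58 of them in 1 cell, and 4 in JVL-14, and its log2 ratio was 1.24 with the endothelial limit at 3 UMIs. The calcium binding protein gene S100a6 had 189 UMIs in 27 members and 18 in 8, a ratio of 0.242 (0.140 to 0.393), and in capillary cells stood at 1478 and 341 CPM. Ptpn1, a tyrosine phosphatase, had 35 UMIs in 21 members and 4 in 4 (ratio 0.290, 0.0749 to 0.812), and in core cells 23 and 3 UMIs with an interval that held 1 (0.0598 to 1.03). Stox2 had 32 in 19 and 3 in 3 (ratio 0.238, 0.0467 to 0.761). Mkrn1 had 25 of its 42 sham UMIs in 1 cell, and Mrpl11 and Ube2m had 32 and 31 UMIs in sham and 2 each in JVL-14. In core cells Ube2m had 11 and 2 UMIs, a ratio of 0.434 (0.0467 to 1.99) whose log2 value of -0.95 was under 2-fold, and Mrpl11 17 and 0.

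Genes that respond to blood flow and to BMP were mostly within 2-fold. Of 11 measured flow response genes 2 were higher and 0 lower past 2-fold (median log2 ratio 0.22), Ccn2 and the vasoconstrictor endothelin gene Edn1 (ratio 3.32, 1.93 to 5.76). The 34 JVL-14 UMIs of Edn1 lay in 5 barrier cells, while 24 of its 26 sham UMIs were in 1 core cell that was not a barrier cell. Klf2, the main shear-induced transcription factor, stood at 1637 and 1741 CPM (ratio 1.06, 0.904 to 1.25), and Klf4 at 720 and 548 CPM (ratio 0.762, 0.574 to 1.0, and 0.697, 0.522 to 0.921, in core cells). Of 9 measured BMP and Id genes, Bambi, a decoy receptor, was higher (ratio 2.33, 1.24 to 4.33) and Id2 lower (20 and 1 UMIs), with Id1 at 1.13 (0.807 to 1.57) and Id3 at 1.66 (1.28 to 2.14). Nrarp, a target of Notch, had 20 sham UMIs and 1 in JVL-14.

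Junction, matrix and immune lists had medians near that of all genes or small counts. Of 12 measured junction genes 1 was higher and 2 lower past 2-fold (median 0.06), the lower being the catenins Jup (54 and 7 UMIs) and Ctnnd1 (33 and 5). Of 10 basement membrane genes 1 was higher and 0 lower (median -0.29), with Col4a2 at 344 and 183 CPM (ratio 0.531, 0.323 to 0.838). Of 18 pan-endothelial genes outside the rule 3 were higher and 0 lower (median 0.37), among them Cd34 at 325 and 715 CPM (ratio 2.20, 1.64 to 2.94). Of these 20 JVL-14 and 14 sham UMIs were in the 6 barcodes that stood apart, and in core cells the Cd34 ratio was 1.86 (1.34 to 2.57), under 2-fold. In core cells 1 of the 18 was higher, Cldn5. Of 10 leukocyte adhesion genes 1 was higher and 1 lower (median 0.25), and Icam1 had a ratio of 1.93 (1.23 to 3.0). Of 19 interferon response genes 2 were higher and 2 lower (median 0.16), with Isg15 at 0.945 (0.609 to 1.43). Of 9 inflammatory genes 1 was higher, Socs3 (ratio 2.04, 1.52 to 2.74), and 1 lower (median 0.03). Of 19 immediate early genes, a group also induced by dissociation, 1 was higher, Ier3 (836 and 2218 CPM, ratio 2.65, 2.24 to 3.15), and 1 lower (median 0.19). Of 12 mitochondrially encoded genes 0 were past 2-fold in either direction (median 0.39, and 0.16 in core cells).

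The lower MHC class II level of JVL-14 members lay in the barcodes that stood apart. Of 7 measured class II genes 6 were past 2-fold lower (median -2.17), and Cd74, the class II chaperone, had 473 UMIs in sham, 417 of them in 1 barcode without Cdh5, Flt1, Kdr and Ptprb, and 41 in JVL-14. In core cells 2 class II genes were measured and both were higher in JVL-14, where 37 of the 41 Cd74 UMIs lay in 1 cell. That cell was in the top 5% of Scrublet doublet scores. It is the same cell that held 21 of the 43 Fn1 and 16 of the 40 Vcam1 UMIs of JVL-14 members.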

How the data were processed

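The authors deposited 1 table of raw UMI counts per gene and barcode for each of 2 libraries, made with Cell Ranger 8.0.0 per the file headers, on mm39 per the submitters' processing notes. The tables hold 33670 genes, 33996641 UMIs in sham and 18796260 in JVL-14. Barcodes were selected by the rule given above. Levels are UMIs summed over the members of a library scaled to a total of 1000000 (CPM), and a log2 ratio adds 0.5 UMIs to each count. A gene was measured with at least 20 UMIs in the members of both libraries together and a mean of at least 20 CPM.

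Each group has 1 library, so nothing was tested. Intervals are 95%, exact, and cover counting error only. A count of 3 UMIs served as the floor where a library had 0. The genes ranked by fold are the 10 highest and 10 lowest ratios among genes with at least 30 UMIs, 50 CPM and a UMI in 20% of members in the higher library, at 0.5 times or more the level of all passing barcodes. In that ranking a count below 3 was taken as 3. It passed over Xist, gene models without a name, and genes of ribosomes, mitochondria, haemoglobin and immunoglobulins. Label markers, rule genes and members of gene lists were named besides.

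No source says that doublets were removed. Scrublet in scanpy 1.11.5 marked 6 barcodes per library at its own threshold, which is too few to have worked, so none were removed, and leaving out the top 5% of scores was an alternative. Members and lists were chosen with earlier results of these data known. The core cells, and the core cells with other programmes left out, were chosen after seeing the data, as were the cuts at 5 UMIs. Calculations used Python 3.11.15, numpy 2.4.6, scipy 1.17.1 and pandas 2.3.3 and were tested on simulated data.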

Additional observations from a re-analysis of the deposited data

How the results depend on the processing

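The member share had a ratio of JVL-14 over sham between 0.789 and 0.965 in the settings that counted members among passing or collagen-expressing barcodes, and of 1.35 among endothelial barcodes. Counts of genes past 2-fold moved most. Against 221 higher and 229 lower, there were 346 and 504 with an endothelial limit of 3 UMIs, 409 and 454 as a mean over cells, 23 and 37 after thinning to 1000 UMIs, 44 and 50 among genes with 50 UMIs and 50 CPM, and 1907 and 509 among genes with a UMI in each library. The higher genes numbered 108 in core cells without other programmes, and the lower genes 142 with under 2 leukocyte UMIs and 132 with 2 UMIs added. Single genes were followed across settings for 81 genes only, not for all genes past 2-fold. Among those of the 81 past 2-fold, the log2 ratios of Rsad2 (1.24) and Lef1 (-0.000653) changed sign at the limit of 3. Those of Spock2 (-0.43) and Il1r1 (-0.72) did so after thinning and that of Efnb2 (0.0338) as a mean over cells. Cd74 was at 1.66 with a limit of 10, 1.88 with under 2 leukocyte UMIs, 1.85 in core cells and 2.55 in core cells without other programmes, where Hbb-bs was at 0.44, S100a8 at 0.0358 and Ccl21a at 0.93. S100a8 was at 0.34 with under 2 leukocyte UMIs, and Ccl21a at 1.23 without the top Scrublet scores and at 1.30 with under 2 lymphatic UMIs. These last 4 genes lay in few barcodes that those settings leave out; for the others the cause was not tested. Over the values of the 20 genes ranked by fold, 271 moved little, 28 moved and 1 changed sign. Plvap, at 0.10 and within 2-fold, ranged from -0.84 to 0.44. The barrier median ranged from 0.23 to 1.93 and the muscle and heart capillary median from -2.76 to -1.61. No paired analysis was possible because each group has 1 library and no test was made. Depth limits genes with few UMIs, and 13 sham and 5 JVL-14 members had under 1000.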
